A study of Arabidopsis thaliana with 3 samples.

Results

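The 9 genes described here encode proteins of the alternative respiratory pathway and of the mitochondrial stress response of Arabidopsis thaliana. They are the alternative oxidases AOX1A (AT3G22370), AOX1C (AT3G27620) and AOX1D (AT1G32350), the NAD(P)H dehydrogenases NDA1 (AT1G07180), NDA2 (AT2G29990) and NDB2 (AT4G05020), the outer membrane protein OM66 (AT3G50930), UPOX (AT2G21640) and AT12CYS-2 (AT5G09570). They were taken by locus code, in a choice made with earlier results of these data known, and make up 9 of the 30271 genes measured. All 9 passed the minimum on low values, and each was tested. AOX1C, AOX1D and AT12CYS-2 passed it mainly through the T34 and T12 libraries.

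The study sequenced ribosomal-RNA-depleted total RNA from whole seedlings aged 9 days. The T34 and T12 groups are populations of gip1 gip2 double mutants, from a cross between the insertion lines GABI_213D01 (gip1, in Col-0) and FLAG_36406 (gip2, in Ws). The WT group is a Ws x Col-0 cross, so all groups have mixed backgrounds of these accessions. T34 was read as the population with the more severe root growth defect. GIP1 and GIP2 belong to the gamma-tubulin complexes that nucleate microtubules. Each group had 3 libraries. The labels put the library used as WT replicate 1 under both WT and T34, and the library used as T34 replicate 3 under no group, and a call that is lost without both is given beside the gene.

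In plants, alternative oxidase takes electrons from ubiquinol to oxygen and bypasses the proton-pumping cytochrome pathway. Type II NAD(P)H dehydrogenases feed electrons into ubiquinone without pumping protons, so that together they form a route that is not coupled to ATP synthesis. Several of these genes respond to inhibitors of mitochondrial respiration through retrograde signalling, in which NAC transcription factors such as ANAC013 and ANAC017 bind a promoter element named the mitochondrial dysfunction motif.

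Each library held 20963358 to 30438933 reads. Ribosomal RNA took 45.0 to 49.4% of the reads in T34, 0.950 to 1.77% in T12, and 22.5, 95.7 and 49.1% in WT replicates 1, 2 and 3. That left 10054599 to 11318689 reads of other nuclear genes in T34, 13121082 to 15270605 in T12, and 12337763, 645187 and 6283096 in the WT libraries. In WT replicate 2, a single read was worth 11.687 normalized counts, so its values for weakly expressed genes rest on a few reads. GIP2 had 1.58, 2.24 and 4.19 normalized counts in T34, 0.57, 0.64 and 0.56 in T12 and 2.46, 11.69 and 0 in WT, where the 11.69 is a single read, too few in any group to check the labels, and GIP1 was not analysed here. The root endodermis markers CASP1, CASP2 and CASP5 and the leaf markers RBCS1A and LHCB1.3 were detected in all 9 libraries.

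The mitochondrial dysfunction motif was searched on both strands as CTTG and CAAG with any 5 bases between them. It lay within 250 bases upstream of the annotated start of NDB2, NDA1 and UPOX. That is 3 of the 9 genes, against 0.729% of 26603 protein-coding genes with windows of the same length. The form with CACG in place of CAAG was in none of the 9 windows and in 0.462% of all. The W-box core TTGAC was upstream of 8 of the 9, all but NDA1, and in 44.92% of all windows. The G-box CACGTG was upstream of UPOX, and in 6.567% of all windows. In windows of 1000 bases the CAAG form was upstream of the same 3 genes (2.831% of all windows). The CACG form was upstream of NDB2 (1.658% of all), and the W-box core of all 9 genes (88.148% of all). Bases after the annotated start and looser forms were not searched, so a window without a match does not show that a gene lacks the motif. A match describes these letters and shows no binding.
The 100 bases before the annotated starts of the genes with the dysfunction motif are shown first, because these genes differ in direction below. The windows of AOX1A, AOX1D and OM66, which of these motifs hold only W-box cores, follow for comparison. They are RefSeq sequence of assembly TAIR10.1, written 5′ to 3′ along the gene's strand, with the motifs in capitals. They lie at chr4:2572327-2572426 (plus strand), chr1:2204004-2204103 (plus strand), chr2:9254278-9254377 (plus strand), chr3:7906421-7906520 (plus strand), chr1:11668691-11668790 (minus strand) and chr3:18929426-18929525 (plus strand).
NDB2: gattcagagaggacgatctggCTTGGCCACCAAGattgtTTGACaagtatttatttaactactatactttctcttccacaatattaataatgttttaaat
NDA1: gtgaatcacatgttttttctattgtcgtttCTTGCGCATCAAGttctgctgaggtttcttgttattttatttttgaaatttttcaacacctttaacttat
UPOX: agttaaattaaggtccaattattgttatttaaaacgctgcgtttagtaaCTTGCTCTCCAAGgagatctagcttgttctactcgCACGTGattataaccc
AOX1A: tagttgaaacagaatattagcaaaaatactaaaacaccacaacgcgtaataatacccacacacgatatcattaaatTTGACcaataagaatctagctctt
AOX1D: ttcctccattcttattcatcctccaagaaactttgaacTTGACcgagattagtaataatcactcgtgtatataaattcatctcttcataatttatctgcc
OM66: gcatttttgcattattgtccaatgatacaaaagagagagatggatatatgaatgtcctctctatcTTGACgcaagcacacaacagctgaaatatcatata
The dysfunction motif began 79 bases before the start in NDB2, 70 bases before it in NDA1 and 51 bases before it in UPOX. The capitals CACGTG in UPOX mark the G-box, and the capitals TTGAC in the other windows mark W-box cores.

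In T34, 6 of the 9 genes differed from WT, 5 higher and 1 lower, at an adjusted p under 0.05 in limma with Benjamini-Hochberg adjustment over 20871 genes. Of all genes tested 45.2% passed in the same comparison, 25.2% higher and 20% lower. In T12, 5 of the 9 differed from WT, all 5 higher, against 40.2% of all genes tested, 23.1% higher and 17% lower. The members' shares of 66.7% in T34 and 55.6% in T12 stood on these high backgrounds, and the count alone does not set the genes apart. The median log2 fold change of the 9 genes was 1.32 in T34 and 2.08 in T12, against 0.06 for all genes tested in each. The genes were chosen with earlier results of these data known, so the medians describe them and are no test of the set. AOX1D, OM66, NDB2 and NDA1 passed the test in both comparisons under every one of the 19 alternatives computed. Both comparisons use the same 3 WT libraries and are therefore not independent. In bulk seedlings, a change in the number of cells of a type cannot be told apart from a change of RNA per cell.

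**Figure D1:**
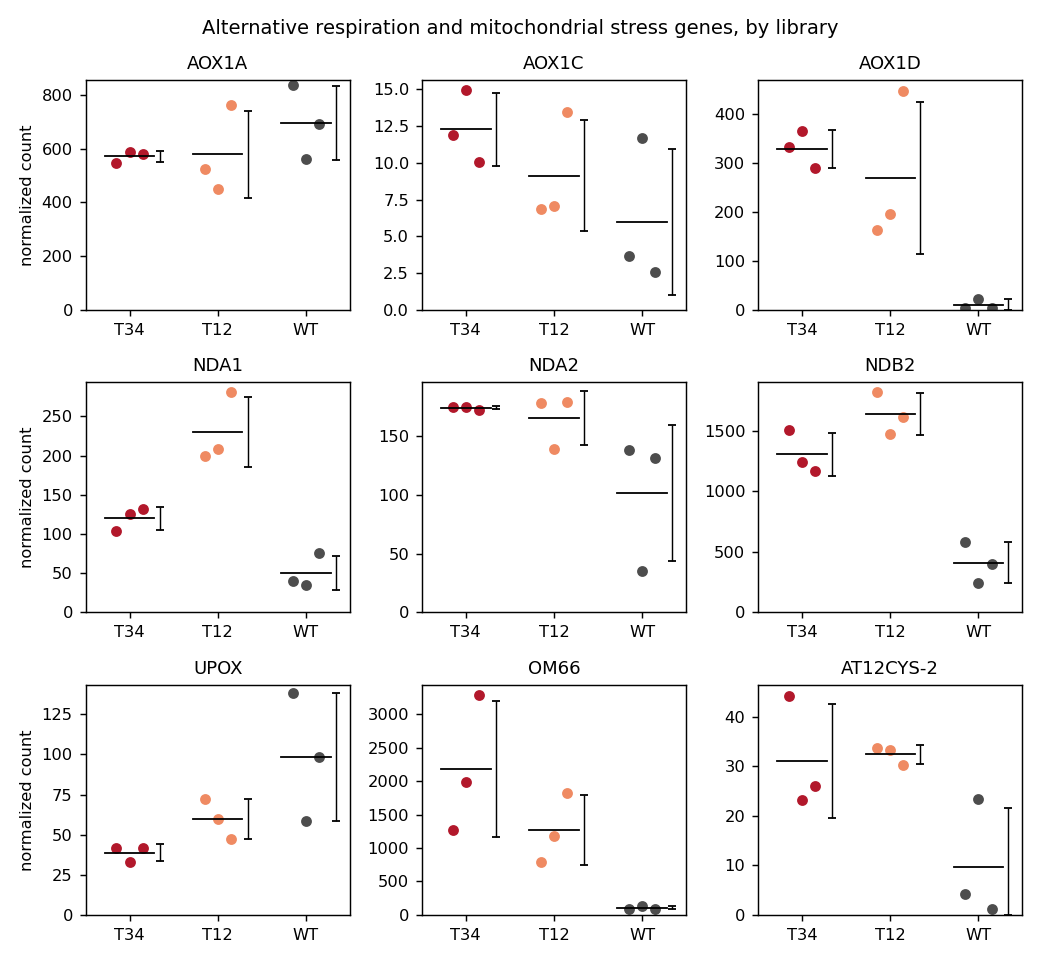
Normalized counts of the 9 genes in each library, with groups in the order T34, T12 and WT and a vertical axis of its own for each gene. Points are libraries, horizontal lines are group means and the bars beside them are SDs (n = 3). Every T34 and T12 library lies above every WT library for AOX1D, NDB2, NDA1, NDA2 and OM66, while AOX1A overlaps between all groups. The share of all genes with such a separation was not counted, so it does not set these genes apart.

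AOX1A (chr3:7906521-7908746, plus strand), the alternative oxidase most often studied as a marker of mitochondrial stress, did not differ from WT in either mutant population. It had 547.20, 586.45 and 579.43 normalized counts in the T34 libraries, 525.57, 450.79 and 761.01 in T12 and 834.67, 560.99 and 692.06 in WT. The groups overlapped, and the highest value was that of a WT library. The mean was 571 ± 20.9 in T34, 579 ± 162 in T12 and 696 ± 137 in WT (SD, n = 3 each). The log2 fold change against WT was -0.27 ± 0.20 (SE) in T34, with a 95% interval of -0.72 to 0.19 and an adjusted p of 0.306 by limma. In T12 it was -0.28 ± 0.20, with an interval of -0.73 to 0.17 and an adjusted p of 0.291. The upper ends of both intervals are fold changes of 1.14 and 1.13. Weighting the libraries by their quality brought the T12 value to -0.58, which passed the test with AOX1A lower in T12 than in WT (adjusted p = 0.0213).

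AOX1D (chr1:11666886-11668690, minus strand) encodes another enzyme of the same family and was the member with the largest difference from WT. It had 332.11, 366.07 and 288.88 normalized counts in the T34 libraries, 163.78, 196.86 and 447.52 in T12 and 4.91, 23.37 and 3.82 in WT. All mutant libraries were far above all WT libraries, and T12 replicate 3 was higher than the other T12 libraries. In WT these values stood for 8, 2 and 3 reads, 13 in all, against 1255 reads in T34 and 1392 in T12. AOX1D rose in T34 by 5.21 ± 0.59 on the log2 scale, 37.1-fold (adjusted p = 0.000121). It rose in T12 by 4.79 ± 0.59, or 27.6-fold (adjusted p = 0.000247). The sizes depend on the few WT reads. Without WT replicate 2 they were 5.94 in T34 and 5.52 in T12, with a pseudocount of 10 they were 4.15 and 3.74, with array weights T34 had 5.96, and with edgeR on the recovered reads they were 5.94 and 5.65. DESeq2 gave 5.88 in T34 and 5.59 in T12.

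AOX1C (chr3:10229045-10230707, minus strand) had the lowest level per kb of exon of the 9 genes in each group, at 9.13, 6.78 and 4.44 normalized counts per kb in T34, T12 and WT. Its 11.86, 14.94 and 10.05 normalized counts in T34, 6.85, 7.05 and 13.46 in T12 and 3.69, 11.69 and 2.55 in WT rested on 47, 47 and 9 reads per group. The groups overlapped through WT replicate 2, where the value was a single read. The log2 fold change was 1.14 ± 0.54 in T34 (adjusted p = 0.112) and 0.71 ± 0.54 in T12 (adjusted p = 0.321), and neither passed. Without WT replicate 2 both passed, with 1.69 in T34 and 1.25 in T12. In T34 it also passed with edgeR (1.74), DESeq2 (1.72) and array weights (1.79). In T12 it passed with array weights (1.08) and not with edgeR (1.31).

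Per kilobase of exon, AOX1D and AOX1A were of similar order in the mutants and far apart in WT. AOX1D reached 216 ± 25.4 normalized counts per kb in T34, 177 ± 102 in T12 and 7.01 ± 7.20 in WT, while AOX1A reached 324 ± 11.9 in T34, 328 ± 91.8 in T12 and 395 ± 77.6 in WT (SD, n = 3 each). Of the summed level of all 5 alternative oxidase genes per kb, AOX1D made up 39.3, 39.6 and 34.8% in the T34 libraries, 25.6, 32.4 and 39.2% in T12 and 0.669, 4.25 and 0.624% in WT. Every mutant library was above every WT library. AOX1A made up 57.1% ± 2.93 in T34, 64.2% ± 6.65 in T12 and 94.7% ± 5.62 in WT (SD, n = 3 each). The sum itself was 568 ± 33.5 normalized counts per kb in T34, 522 ± 196 in T12 and 415 ± 61.6 in WT. In WT replicate 2 the AOX1D share stood on 2 of 53 reads, or 3.77% of reads (95% Wilson interval 1.04 to 12.8%, counting error only). These shares were chosen after the values had been seen, and they are given without a test.

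**Figure D2:**
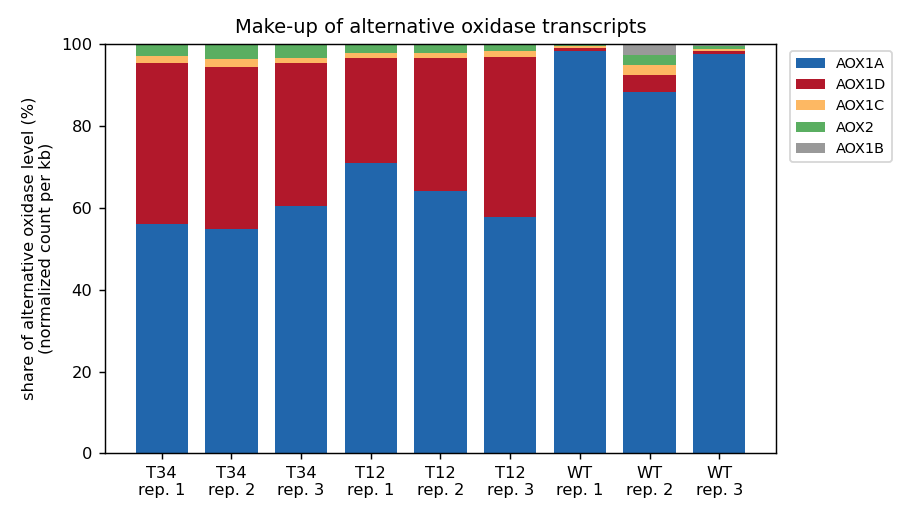
Share of each of the 5 alternative oxidase genes in their summed normalized count per kb of exon, 1 bar per library, with T34, T12 and WT libraries from left to right. AOX1D takes 25.6 to 39.6% in the 6 mutant libraries and 0.624 to 4.25% in the WT libraries.

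NDB2 (chr4:2572427-2576599, plus strand), an NADH dehydrogenase on the outer face of the inner mitochondrial membrane, had the highest level per kb of exon of the 3 dehydrogenases, at 509, 639 and 160 normalized counts per kb in T34, T12 and WT. It had 1503.21, 1243.88 and 1168.07 normalized counts in T34, 1822.10, 1472.91 and 1615.67 in T12 and 583.47, 245.43 and 398.92 in WT. Each mutant library held more than any WT library. It rose by 1.75 ± 0.27 on the log2 scale in T34, 3.36-fold (adjusted p = 0.000695), and by 2.08 ± 0.27 in T12, 4.22-fold (adjusted p = 0.00032).

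NDA1 (chr1:2204104-2207099, plus strand), a dehydrogenase on the matrix side whose transcript is also known to respond to light, had 103.59, 125.51 and 131.46 normalized counts in T34, 199.73, 208.40 and 280.96 in T12 and 39.92, 35.06 and 75.20 in WT. The groups formed 3 ranges that did not overlap, with T12 highest and WT lowest. The lowest WT value, in WT replicate 2, stood on 3 reads. For neither this gene nor the others was the share of all genes with separate ranges counted. It rose by 1.32 ± 0.28 on the log2 scale in T34, 2.50-fold (adjusted p = 0.00422), and by 2.24 ± 0.28 in T12, 4.72-fold (adjusted p = 0.000269).

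NDA2 (chr2:12793320-12796085, minus strand), the matrix-side paralog of NDA1, showed a smaller difference that did not pass. It had 174.75, 174.82 and 172.49 normalized counts in T34, 178.04, 139.15 and 178.90 in T12 and 138.19, 35.06 and 131.27 in WT. The mutant libraries all lay above the WT libraries, with T12 replicate 2 only just above the highest WT value, and WT replicate 2, at 3 reads, lay far below the other WT libraries. The log2 fold change was 1.00 ± 0.44 in T34 (95% interval 0.01 to 2.00, adjusted p = 0.0934) and 0.92 ± 0.44 in T12 (-0.08 to 1.92, adjusted p = 0.127). Without WT replicate 2 it was 0.37 in T34, which passed (adjusted p = 0.0422), and 0.28 in T12, which did not (adjusted p = 0.104). Without WT replicate 1 it was 1.34 in T34 and also passed. In the authors' deposited table NDA2 was 0.61 higher on the log2 scale in T34 than in WT (adjusted p = 0.046).

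OM66 (chr3:18929526-18932181, plus strand), an AAA-type ATPase of the outer mitochondrial membrane that is also linked to salicylic acid and cell death, showed the second largest difference. It had 1266.77, 1994.68 and 3284.82 normalized counts in T34, 793.21, 1182.43 and 1828.22 in T12 and 95.81, 140.25 and 90.49 in WT. The lowest mutant library was several times higher than the highest WT library, and the spread among the libraries of each mutant population was wide. OM66 rose by 4.23 ± 0.38 on the log2 scale in T34, 18.8-fold (adjusted p = 3.36e-05), and by 3.47 ± 0.38 in T12, 11.1-fold (adjusted p = 0.000124).

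UPOX (chr2:9254378-9255743, plus strand), a mitochondrial protein known as upregulated by oxidative stress, was the one member that passed the test with a lower value in T34 than in WT. It had 41.91, 32.87 and 41.87 normalized counts in T34, 72.47, 59.63 and 47.11 in T12 and 138.19, 58.44 and 98.14 in WT. T34 lay below WT in every library, and T12 overlapped with WT through WT replicate 2, at 5 reads. UPOX fell by 1.24 ± 0.31 on the log2 scale in T34, 2.36-fold lower (adjusted p = 0.0101). Leaving out both libraries with doubtful labels (T34 replicate 3 and WT replicate 1) gave -1.01, which no longer passed (adjusted p = 0.0562). In T12 the log2 fold change of -0.65 ± 0.31 did not pass (adjusted p = 0.127), though it did without WT replicate 2 (-0.97, adjusted p = 0.00838), with edgeR (-0.90), with DESeq2 (-0.87) and with array weights (-0.84). In the authors' deposited table it was also lower in T12 (-0.82, adjusted p = 0.0139). UPOX has the dysfunction motif upstream, as NDB2 and NDA1 have, and those 2 genes were higher in both mutant populations. Whether the motif has a part in any of these differences was not tested.

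AT12CYS-2 (chr5:2970498-2972222, plus strand), a small twin-cysteine mitochondrial protein, was higher in both populations, at low counts. It had 44.28, 23.16 and 25.96 normalized counts in T34, 33.67, 33.34 and 30.28 in T12 and 4.30, 23.37 and 1.27 in WT. WT replicate 2, at 2 reads, overlapped with T34 and not with T12, and the WT group held 10 reads in all. The log2 fold change was 2.22 ± 0.73 in T34 (4.65-fold, adjusted p = 0.0333) and 2.33 ± 0.73 in T12 (5.02-fold, adjusted p = 0.0302). In T34 the call was lost when T34 replicate 1 (1.94), T34 replicate 2 (2.39), T34 replicate 3 (2.31), T12 replicate 2 (2.22), WT replicate 1 (2.05) or WT replicate 3 (1.44) was left out, and in T12 when T12 replicate 1 (2.30), T12 replicate 2 (2.31), T12 replicate 3 (2.38), WT replicate 1 (2.17) or WT replicate 3 (1.56) was. It was also lost with only the libraries of the groups compared and without the doubtfully labelled libraries (2.15 in T34 and 2.17 in T12). Without WT replicate 2 the values were 3.15 and 3.27, and with a pseudocount of 10 they were 1.20 and 1.27. With edgeR they were 2.91 and 2.97, with DESeq2 2.86 and 2.92, and with array weights 3.15 and 3.41.

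Between the mutant populations, T34 against T12, limma called none of the 9 genes, against 2.38% of all genes tested. At an unadjusted p under 0.05, 1 of the 9 differed, NDA1, against 15.4% of all genes. On the recovered reads, edgeR and DESeq2 each called that 1 gene, against 6.56% and 7.79% of all genes, so the count of 1 is near the background. NDA1 was lower in T34, with means of 120 ± 14.7 in T34 and 230 ± 44.6 in T12. Its log2 fold change of -0.92 ± 0.28 had an adjusted p of 0.145 with limma, 0.0315 with edgeR and 0.00622 with DESeq2. It also passed with array weights (-0.82), with only the libraries of both populations (-0.92), and in the 9-library fit without WT replicate 2 or without WT replicate 3 (-0.92 in both). NDA1 made up 38.1% ± 3.07 of the summed NDA1 and NDA2 level per kb in T34, against 55.3% ± 4.51 in T12 and 33.9% ± 13.3 in WT. The WT libraries ran from 20.5 to 47.2%, and WT replicate 2, the highest of them, stood on 3 of 6 reads. These shares are given without a test. OM66 had a log2 fold change of 0.76 ± 0.38 in T34 against T12 (95% interval -0.10 to 1.62), AOX1D one of 0.43 ± 0.59 (-0.90 to 1.75) and UPOX one of -0.59 ± 0.31 (-1.29 to 0.11). OM66 (0.74) and UPOX (-0.68) passed with array weights. The upper ends of the intervals are differences of 3.36-fold in AOX1D and 3.07-fold in OM66.

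**Figure D3:**
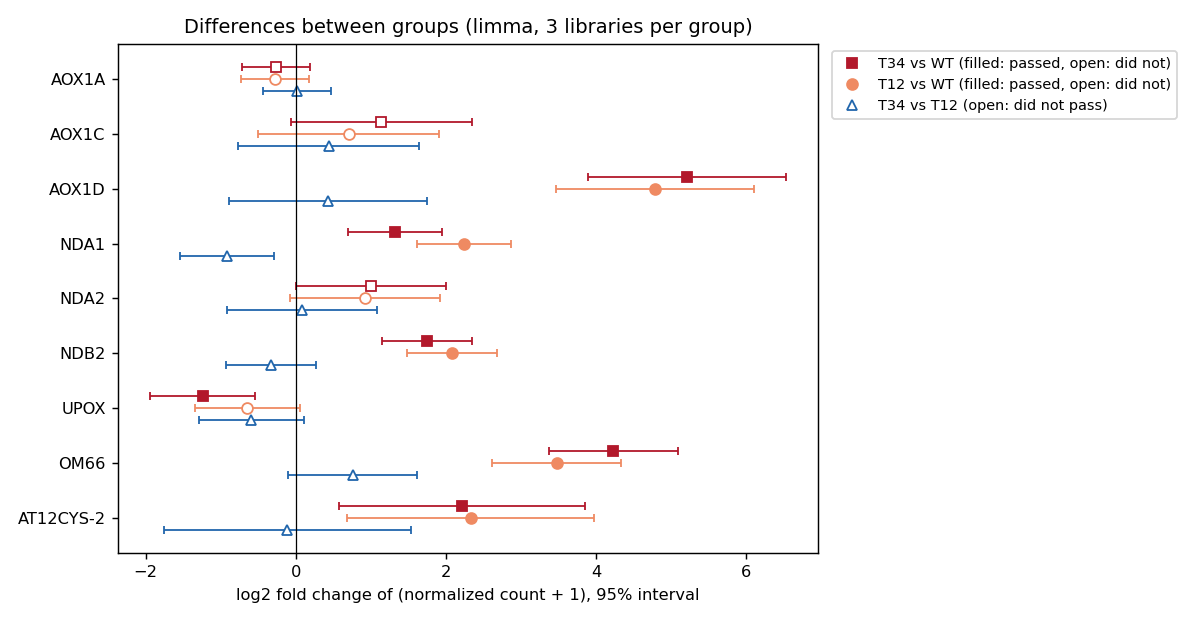
Log2 fold changes of the 9 genes with 95% intervals from limma, for T34 vs WT (squares), T12 vs WT (circles) and T34 vs T12 (triangles). Filled symbols passed the adjusted p of 0.05. AOX1D and OM66 lie farthest to the right, AOX1A lies close to 0, UPOX lies to the left, and no triangle is filled.

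Patterns near AOX1A across the 9 libraries were searched among tested nuclear genes with a mean normalized count of at least 100. The members were left out of that search, so none could be among the nearest. By the root mean square difference of centred log2 values, the 5 nearest of 12887 genes were APTX (0.146), AT2G01440 (0.146), RPS14 (0.151), AT1G50630 (0.152) and AT2G36670 (0.155). Of the other members UPOX was the nearest, at 0.539 with 8968 genes closer, and AOX1D was the farthest, at 2.60 with 12780 genes closer.

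Other genes in and around alternative respiration were taken as a mixed list of 11 genes, of which 10 were tested. Beside alternative oxidases and dehydrogenases it holds the uncoupling proteins PUMP1 and PUMP2, the carriers UCP5 and DIC2, and the plastid terminal oxidase PTOX. In T34, 6 of the list were higher and 1 was lower than in WT, and in T12, 5 were higher and 1 was lower. That is 70% called in T34 and 60% in T12. PUMP1, UCP5, DIC2 and PTOX were among the higher genes in both, so the counts do not describe alternative oxidases and dehydrogenases alone. The median log2 fold change was 0.97 in T34 and 0.98 in T12, and the shares and medians of all genes given above hold beside this list and those that follow. The dicarboxylate carrier UCP5 (also named DIC1) averaged 1587 ± 292 normalized counts in T34, 1262 ± 309 in T12 and 106 ± 40.0 in WT, with log2 fold changes of 3.94 ± 0.27 in T34 (adjusted p = 8.45e-06) and 3.59 ± 0.27 in T12 (adjusted p = 1.69e-05). DIC2, another carrier of this kind, rose by 3.88 ± 0.79 in T34 and 2.76 ± 0.79 in T12. The T12 value of DIC2 did not pass without T12 replicate 3 (2.07), WT replicate 1 (2.33), WT replicate 3 (2.52) or the doubtfully labelled libraries (2.33). AOX2, an alternative oxidase of seeds, had 2.17 ± 0.52 in T34, which passed, and 1.28 ± 0.52 in T12, which did not. It stood on 3, 1 and 3 reads in WT replicates 1, 2 and 3. AOX2 passed the minimum on low values mainly through the T34 and T12 libraries. Its T34 call was lost without the doubtfully labelled libraries (1.72), and its T12 value passed with edgeR (2.097), DESeq2 (2.05), array weights (1.53) and without WT replicate 2 (1.87). The external dehydrogenase NDB4 rose by 1.61 ± 0.35 in T34, and its 1.11 ± 0.35 in T12 was past the threshold but did not remain so when T34 replicate 1, 2 or 3 (1.11 each), T12 replicate 1 (0.90), T12 replicate 3 (0.97), WT replicate 1 (1.14) or WT replicate 2 (0.85) was left out, nor without the doubtfully labelled libraries (1.14), without the minimum on low values (1.11), with only the libraries of the groups compared (1.11) or with array weights (0.31). NDB1, an external dehydrogenase for NADPH, was the gene that fell, by 0.64 ± 0.11 in T34 and 0.60 ± 0.11 in T12. It was named after its values had been seen.

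Of 14 regulators of retrograde signalling, 4 were higher and 3 lower in T34, and 5 were higher and 2 lower in T12, with medians of 0.10 and -0.10. The share called was 50% in each comparison, against 45.2% of all genes tested in T34 and 40.2% in T12. The counts are near that background and do not set the regulators apart. The lower calls depended on the setting. Without the doubtfully labelled libraries 0 were lower in T34 and 1 in T12, where 36.1% of all genes passed in each. With array weights 5 were lower in T34 and 6 in T12, where 57.4% and 56.3% of all genes passed. WRKY40, described as a repressor of AOX1A, averaged 3637 ± 751 normalized counts in T34, 2344 ± 741 in T12 and 81.7 ± 51.5 in WT. Its log2 fold changes were 5.62 ± 0.39 in T34 (adjusted p = 8.88e-06) and 4.95 ± 0.39 in T12 (adjusted p = 2.15e-05). NAC016 rose by 3.10 and 2.54, WRKY15 by 2.23 and 1.78, and NAC2 (also named ANAC078) by 1.27 and 0.99, in T34 and T12. ANAC013 and ANAC017, the regulators that bind the dysfunction motif, were named after their values had been seen. ANAC013 fell by 0.54 ± 0.15 in T34 and 0.59 ± 0.15 in T12, with 131 ± 21.0, 126 ± 2.64 and 190 ± 17.6 normalized counts in T34, T12 and WT. The T34 call was lost without T34 replicate 3 (-0.40) and without the doubtfully labelled libraries (-0.43). ANAC017 did not pass in either, at -0.19 ± 0.12 in T34 and -0.13 ± 0.12 in T12, but passed as lower with array weights in both (-0.26 in T34 and -0.27 in T12) and with upper quartile scaling in T34 (-0.32).

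Of 16 other genes of the mitochondrial dysfunction response, 14 were tested. In T34, 4 were higher and 5 lower, and in T12, 4 were higher and 2 lower, with medians of 0.13 and 0.45. The shares called were 64.3% in T34 and 42.9% in T12, against 45.2% and 40.2% of all genes tested. The T12 count is thus near the background, and the T34 calls went in both directions. The mitochondrial small heat shock protein gene AT5G51440 rose by 2.97 ± 0.45 in T34 and 2.67 ± 0.45 in T12, and AT5G64400, which encodes a close relative of AT12CYS-2, by 1.81 ± 0.32 and 1.20 ± 0.32. The T12 call of AT5G64400 was lost without T12 replicate 3 (1.04). The efflux carrier gene AT2G04050 fell by 2.13 ± 0.58 in T34, a call that was lost without T34 replicate 2 (-2.02) and without the doubtfully labelled libraries (-1.84). In T12 it had -1.51, which did not pass, but it passed with edgeR (-1.43), DESeq2 (-1.33), array weights (-2.46), upper quartile scaling (-1.62), without T12 replicate 3 (-2.20) and without WT replicate 2 (-1.85). AT2G41730 fell by 1.96 ± 0.39 in T34 and had -0.62 in T12, which did not pass, though it did without T12 replicate 3 (-1.10) and with array weights (-1.13).

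Of 8 mitochondrial chaperones and proteases, 7 were higher in T34 and 8 in T12, with none lower in either. The medians were 0.82 in T34 and 0.90 in T12. The shares called were 87.5% in T34 and 100% in T12, against 45.2% and 40.2% of all genes tested. HSP23.6, a small heat shock protein, rose by 2.09 in T34 and 2.45 in T12, MTHSC70-2, a matrix chaperone, by 2.08 and 1.70, CLPB4, a disaggregase, by 1.75 and 1.67, and HSP60, a chaperonin, by 0.92 and 1.04. Of 20 nuclear genes of the cytochrome pathway and its complexes, 15 were higher in each population and none lower, with medians of 0.62 in T34 and 0.56 in T12. That is 75% called in each, beside the same shares of all genes. After upper quartile scaling, 11 were higher in T34 and 12 in T12. The cytochrome c genes CYTC-2 (2.50 in T34 and 2.60 in T12) and CYTC-1 (1.09 and 1.12) had the largest differences from WT in both populations. AT3G15640 (0.94 and 0.56), for a cytochrome c oxidase subunit, and AT3G27240 (0.88 and 0.94), for cytochrome c1, came next among the genes called in T34. The call of AT3G27240 was lost in T34 without T34 replicate 1 (0.87) or T34 replicate 2 (0.86), and in T12 without T12 replicate 3 (0.87).

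**Figure D4:**
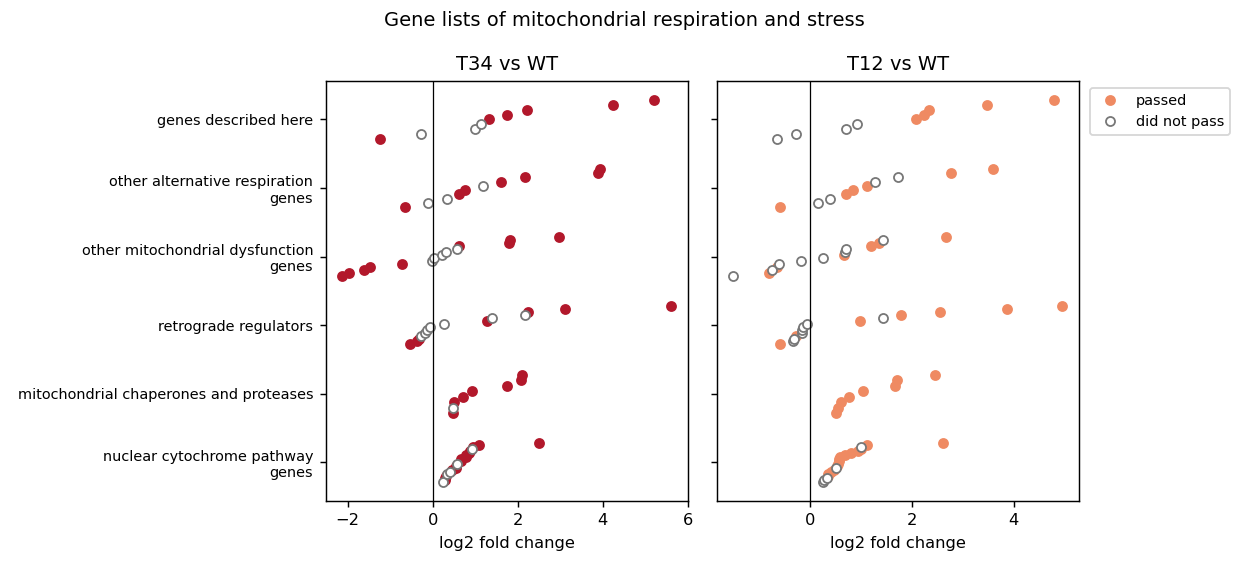
Log2 fold changes of each tested gene of the lists, T34 vs WT on the left and T12 vs WT on the right, 1 row of points per list. Filled points passed the adjusted p of 0.05. The chaperones and the cytochrome pathway genes lie to the right of 0 in both panels, while the regulators and the other dysfunction genes lie on both sides.

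Markers of other tissues moved with the groups, and their part in the differences above was not tested. The summed level of the 3 endodermis markers was 179 to 228 normalized counts in T34, 168 to 278 in T12 and 344 to 653 in WT, and all 3 were lower in both populations. The sum of the leaf markers RBCS1A and LHCB1.3 was 38769 to 47939 in T34, 65923 to 71856 in T12 and 76250 to 126942 in WT. Both were lower in T34, and LHCB1.3 was lower in T12. The seed storage genes CRA1, CRU3, OLEO1 and OLEO2 summed to 11741 to 29016 in T34, 2167 to 5555 in T12 and 56.1 to 5259 in WT. All 4 were higher in T34, with CRA1 at 5.29, OLEO2 at 5.14, CRU3 at 4.74 and OLEO1 at 4.17 on the log2 scale, and OLEO2, at 3.38, was higher in T12. The CRU3 call was lost without T34 replicate 1 (5.11), T34 replicate 2 (4.39), T34 replicate 3 (4.70), T12 replicate 1, 2 or 3 (4.74 each) or WT replicate 1 (5.33), and with edgeR (2.86), DESeq2 (2.68), no minimum on low values (4.74) or only the libraries of the groups compared (4.74). Without the doubtfully labelled libraries the T34 calls of CRA1 (5.73) and CRU3 (5.30) were lost. In T12, CRA1 (4.52), CRU3 (3.95) and OLEO1 (3.04) also passed without WT replicate 2. With array weights CRA1 (5.52), CRU3 (5.24) and OLEO1 (3.44) passed in T12 as well. OLEO1 further passed in T12 with edgeR (2.21) and with a pseudocount of 10 (1.95). None of these 9 markers was at 0 in any library. Among reads other than ribosomal RNA, genes encoded in the mitochondrion took 2.99 to 3.08% in T34, 2.31 to 2.51% in T12 and 1.44 to 2.26% in WT, and chloroplast genes took 21.2 to 22.7% in T34, 33.1 to 35.4% in T12 and 39.2 to 52.8% in WT.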

How the data were processed

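RNA was measured by sequencing in 9 libraries, 3 each of T34, T12 and WT. The labels do not say whether the 3 libraries of a group came from separate cultures, and the p-values then reflect variation among these libraries, which may be technical. A library stands in the labels under both WT and T34, and another under no group. Because of the tables that hold them, the first was used as WT replicate 1 and the second as T34 replicate 3.

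Per the submitters' processing notes, the genome build was TAIR10 and the tools were DESeq2 1.22.2, featureCounts 1.6.2, HISAT2 2.1.0 and cutadapt 1.8.1. How strand and multiply matching reads were handled is not given in the sources used here. Values of close paralogs, NDA1 and NDA2 for example, are uncertain for that reason. The authors deposited 2 tables with a normalized count per library (signal), a mean count, a log2 fold change with its error, a test score and p-values. No per-sample column was left unmapped (0). At a tolerance of 0.01, 100% of values came out as whole reads.

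Differences were tested with limma 3.58.1 (limma-trend, R 4.3.3) on log2(normalized count + 1), with all 9 libraries in 1 fit, for 20871 genes with at least 10 in at least 3 libraries. The log2 scale with this pseudocount understates changes of low genes. The call threshold was an adjusted p (Benjamini-Hochberg) of 0.05. On the recovered reads, edgeR 4.0.16 called 10386 genes in T34 vs WT (limma 9428) and 9513 in T12 vs WT (limma 8382), and DESeq2 1.42.0 was a further alternative. Limma called 5262 genes higher and 4166 lower in T34 vs WT (4477 and 5334 with upper quartile scaling), and 4827 higher and 3555 lower in T12 vs WT (4192 and 4669). Upper quartile scaling moved the median log2 fold change of all genes from 0.06 in each to -0.07 in T34 and -0.05 in T12. Only the limma step was tested on simulated data, for T34 vs WT, with known changes set in a small part of the genes. The data here had far more genes called.

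The members and lists were chosen with earlier results of these data known. All 9 members are named, and of each other list, up to 4 genes with the largest absolute log2 fold change among those called in T34 vs WT. Exceptions are marked. Gene names, exon lengths, coordinates and promoters come from RefSeq's TAIR10.1, in which 29991 of 30271 loci were found. GIP1 is not analysed here.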

Additional observations from a re-analysis of the deposited data

How the results depend on the processing

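Over 1755 values of single genes and alternatives, 1638 kept their direction and side of the threshold, 57 lost a call, 50 gained one and 10 changed sign, all 10 of them uncalled. AOX1A in T34 against T12 was 0.01, and was -0.010 with TMM, -0.0056 with upper quartile scaling, -0.021 with edgeR and -0.021 with DESeq2. With 1 library left out at a time it ran from -0.15 to 0.23, negative without T34 replicate 2, T12 replicate 1 or T12 replicate 2. Likewise in T34 against T12, AT12CYS-2 ran from -0.39 to 0.065 (positive without T34 replicate 2) and NDA2 from -0.036 to 0.14 (negative without T12 replicate 2). CRU3 in T12 against WT ran from -0.14 (without WT replicate 3) to 3.95. With array weights, 8 members passed in T12 against WT (56.3% of all genes did) and 3 in T34 against T12 (30.2% of all genes), where edgeR, DESeq2 and the fit on only the libraries of both groups called 1 each. Array weights also called 11 regulators and 10 other dysfunction genes in T12 against WT, beside that 56.3% of all genes. Of all genes in T34 against T12, limma called 497, array weights 6297, edgeR 1369, DESeq2 1625, the fit on both groups alone 2144, and the fit without the doubtfully labelled libraries 162. Leaving out a library gave 14 (without T34 replicate 2) to 1898 genes (without WT replicate 2) there, with 0 to 1 members. It gave 7341 to 11327 genes with 5 to 8 members in T34 against WT, and 6350 to 10320 genes with 4 to 7 members in T12 against WT. The cause was not tested. AOX1C and AT12CYS-2 were not tested at a mean of at least 50. Where 2 libraries remained in a group, the spread was pooled over the groups. Depth limits AOX1C, AOX1D and AT12CYS-2 in WT, at 9, 13 and 10 reads. No paired analysis was possible because the labels give the libraries no replicate numbers that tie them across groups.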
